A study of Mus musculus with 12 samples.

Results

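Imprinted genes are expressed mainly from 1 parental chromosome, and 35 of them were followed in RNA sequencing of mouse embryonic stem (ES) cells. The members were chosen as known imprinted genes, with earlier results of these data at hand. Gene identifiers, with their versions removed, were matched to GENCODE mouse release M21 (GRCm38). All 35 were found among the 52550 identifiers listed for each library. They form 19 loci, 8 of which hold 2 or more members, and 13 members lie on chromosome 7. By textbook assignment 22 are expressed from the paternal allele, 9 from the maternal allele, and 4 (Grb10, Gnas, Trappc9 and H13) from either allele depending on tissue or transcript. The libraries give the summed RNA of both alleles, so the allele of origin was not measured.

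The 12 libraries fall into 6 groups of 2. Unmodified ES cells were grown in 2iL, a serum-free medium with LIF, the MEK inhibitor PD0325901 and a second inhibitor that the labels leave unnamed (in 2i media, one of GSK3), and were treated for 60 h with 100 nM JQ1 or with DMSO. GSK3 knockout ES cells were grown in serum/LIF (serum with the cytokine LIF) and were treated with JQ1 or DMSO for the same time. Unmodified ES cells in serum/LIF with JQ1 or DMSO complete the design. JQ1 displaces BET family bromodomain proteins from acetylated histones, and DMSO is its solvent. Feeder history differed with the medium: mitomycin-C treated fibroblast feeders carried the serum/LIF cultures until a passage onto gelatin, and 2iL cultures had gelatin throughout. Effects of the medium and of the feeders cannot be told apart. The labels do not say how the knockout was made or whether it is 1 clone, and they name no strain or sex. Whether the replicates of a group came from different cultures is not given either. The p-values then measure only how far these libraries differ, and that spread may be technical.

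Genomic imprinting rests on DNA methylation laid down in the germ line at imprinting control regions. After fertilization these marks are kept through the genome-wide loss of methylation by zinc finger proteins such as ZFP57, which recruit TRIM28 and histone and DNA methyltransferases. Many imprinted genes control fetal growth, placental function or metabolism: paternally expressed genes such as Igf2 and Peg10 tend to favour growth, and maternally expressed genes such as Cdkn1c, Phlda2 and H19 tend to limit it. Imprints are known to be unstable in cultured ES cells, and MEK inhibition lowers DNA methylation there.

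Library totals ran from 17869865 to 48723436 expected counts, with the deepest being serum/LIF DMSO library 1. Of the targeted genes, Gsk3a held 23.4 to 32.9 CPM (counts scaled to library size) over 4 knockout libraries, against 65.1 to 130 CPM over 8 unmodified libraries. Gsk3b held 42.5 to 61.1 CPM in the knockout, against 72.2 to 158 CPM. With DMSO, knockout over unmodified, the log2 fold change was -1.56 ± 0.13 for Gsk3a (adjusted p = 2.08e-06, edgeR's quasi-likelihood test) and -0.65 ± 0.13 for Gsk3b (adjusted p = 0.00165), and RNA of both genes was still detected. ES cell markers (6 genes, among them Pou5f1 and Nanog) summed to 2970 to 3820 CPM in the 4 libraries in 2iL, 2500 to 3210 CPM in the knockout and 990 to 1580 CPM in unmodified serum/LIF. Of these 6 genes, 5 were higher in 2iL than in serum/LIF with DMSO. The other 1, Utf1, was lower, with a mean of 34.2 CPM against 254 CPM. Fibroblast markers (12 genes) summed to 12.8 and 7.92 CPM in 2iL with DMSO, 397 and 582 CPM in the knockout with DMSO, and 1790 and 1480 CPM in serum/LIF with DMSO. Col1a1, a fibroblast collagen gene, stood at 0.872 and 0.599 CPM in 2iL, 139 and 239 CPM in the knockout and 518 and 482 CPM in serum/LIF, all with DMSO. In both 2iL DMSO libraries 5 of the 12 fibroblast markers had 0 counts. Trophoblast markers (7 genes, in serum/LIF mostly Krt8) summed to 64.7 and 60.7 CPM in 2iL, 59.6 and 58.5 CPM in the knockout and 1120 and 552 CPM in serum/LIF. In 2iL 4 of the 5 tested were lower than in serum/LIF and 1, Tfap2c, was higher (means of 58.4 and 27.7 CPM). In the knockout 3 of the 5 were lower and 0 higher, and Cdx2 had means of 27.3 CPM there and 15.7 CPM in serum/LIF. Primitive endoderm markers (7 genes, in serum/LIF mostly Dab2) summed to 5.64 and 3.36 CPM in 2iL, 92.6 and 65.3 CPM in the knockout and 53.2 and 37.3 CPM in serum/LIF. Afp and the trophoblast gene Prl3d1 had 0 counts in all 12 libraries. These marker levels move with several of the results that follow, and their part in those results was not tested. In such bulk samples fewer cells of a type cannot be told apart from less RNA per cell.

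**Figure D1:**
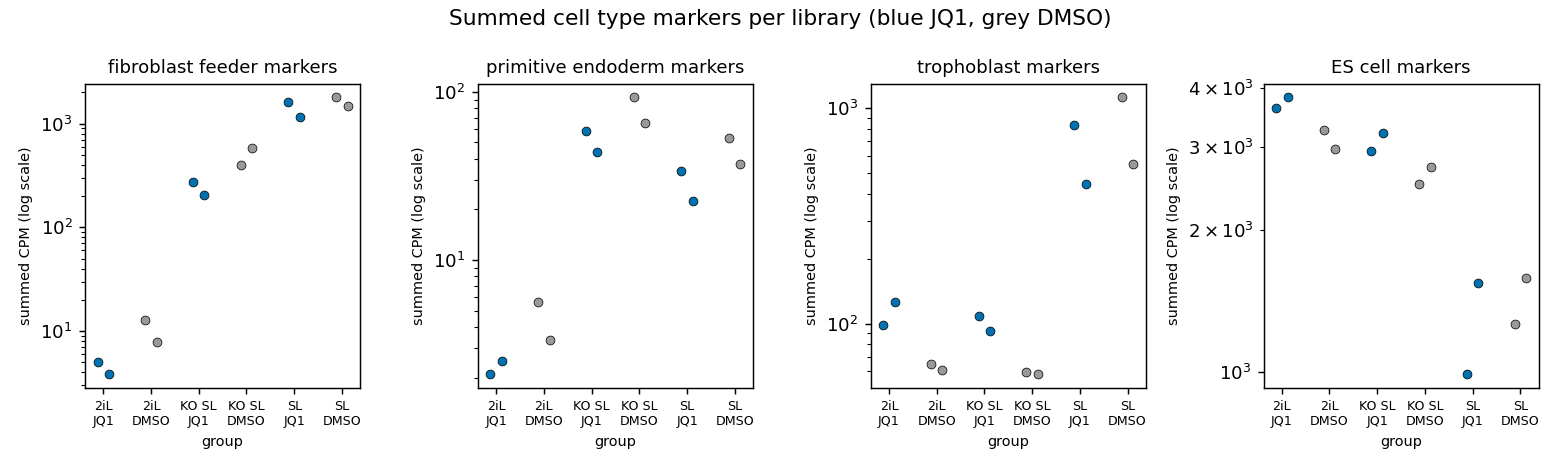
Summed CPM (log scale) of fibroblast, primitive endoderm, trophoblast and ES cell markers, 1 point per library, blue for JQ1 and grey for DMSO, by group. Fibroblast markers stay between 3.88 and 12.8 CPM in the 2iL libraries, against 1150 to 1790 CPM in unmodified serum/LIF.

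Levels per transcript length, given as the authors' TPM values, show how large this set is in each setting. The 35 members together held 845.4 and 1005 TPM in 2iL with DMSO, 1597 and 1414 TPM in the knockout with DMSO, and 2436 and 2131 TPM in serum/LIF with DMSO. In 2iL, Rian (249 ± 59.9 TPM, mean ± SD, n = 2) and Meg3 (244 ± 33.0 TPM), both maternal noncoding RNAs, led the set, followed by Slc38a4, an amino acid transporter, at 85.8 ± 2.3 TPM. In the knockout the order was Peg10 (310 ± 74.3 TPM), Rian (277 ± 14.1 TPM) and Meg3 (242 ± 4.82 TPM). The Peg10 and Rian libraries overlapped, and those of both genes lay above both Meg3 libraries. The mean of Peg10 lay above that of Meg3 by less than the SD of Peg10. In serum/LIF, Rian (360 ± 15.7 TPM) and Meg3 (358 ± 21.4 TPM) stood level, followed by Gnas (303 ± 80.5 TPM), Phlda2 (253 ± 0.665 TPM) and Peg10 (204 ± 86.9 TPM). Members with a mean under 1 TPM numbered 12 in 2iL, 9 in the knockout and 5 in serum/LIF, all with DMSO.

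**Figure D2:**
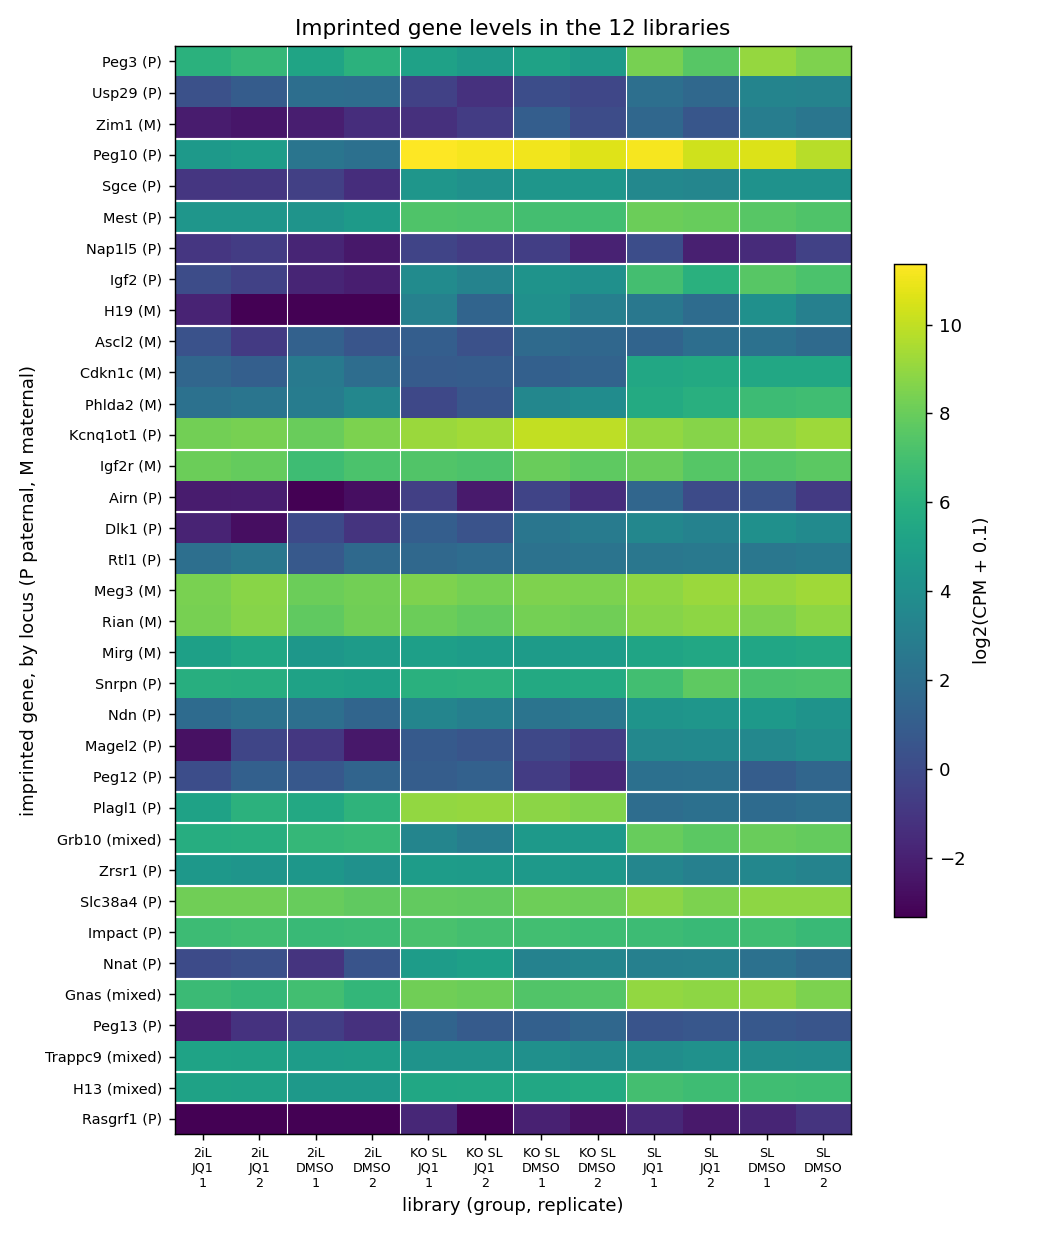
Heat map of log2(CPM + 0.1) for the 35 imprinted genes (rows, by locus, with P paternal and M maternal) in the 12 libraries (columns, by group and replicate). Peg10, Sgce, Igf2, H19 and Magel2 are among the rows that are darker in the 2iL columns than in the unmodified serum/LIF columns. The Plagl1 row is brightest in the knockout columns.

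Most members were lower in 2iL than in serum/LIF. With DMSO, 28 of the 34 tested members fell in 2iL, 3 rose (Plagl1, Trappc9 and Zrsr1) and 3 did not pass (Impact, Nap1l5 and Peg12). The threshold was an adjusted p of 0.05 (Benjamini-Hochberg, over the 16987 genes tested by edgeR's quasi-likelihood test). Calls covered 91.2% of the tested members, against a background of 54.8% of all genes, with 26.5% lower and 28.3% higher. The median log2 fold change was -1.88 over the tested members and 0.04 over all genes, and it stayed at -1.88 with H19, absent in 2iL, set at its bound. By class, 9 of 9 maternal members fell (median -1.13), 16 of 21 paternal members fell and 2 rose (median -2.10), and of the 4 members of mixed class 3 fell and 1 rose. Rasgrf1, a paternal guanine nucleotide exchange factor gene, was too low to test: it had 0 counts in all 4 libraries in 2iL, 3 and 1 counts in the knockout with DMSO and 9 and 7 counts in serum/LIF with DMSO. Fibroblast markers moved the same way, with 10 of 10 tested lower in 2iL.

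In GSK3 knockout cells most of the called members were also lower. With DMSO, 19 of 34 tested members fell in the knockout, 4 rose (Plagl1, Nnat, Zrsr1 and Kcnq1ot1) and 11 did not pass. Calls covered 67.6% of the tested members, against a background of 40.0%, with 21.0% of all genes lower and 18.9% higher. The median log2 fold change was -0.70 over the members and 0.01 over all genes. Of the classes, 6 of 9 maternal members fell and 0 rose (median -0.67), 10 of 21 paternal members fell and 4 rose (median -0.49), and 3 of 4 of mixed class fell. Of the fibroblast markers 8 of 10 tested were lower in the knockout and 1 was higher. Of the primitive endoderm markers 5 of 6 were higher and 1, Dab2, was lower (means of 14.3 CPM in the knockout and 36.9 CPM in serum/LIF). Pdgfra is in both lists and is counted in both as higher, with means of 22.6 CPM in the knockout and 4.13 CPM in serum/LIF. The 2iL and knockout comparisons share the serum/LIF DMSO libraries, so a common direction is not independent evidence, and their values are given side by side. The JQ1 comparisons use the same DMSO libraries as their own controls.

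**Figure D3:**
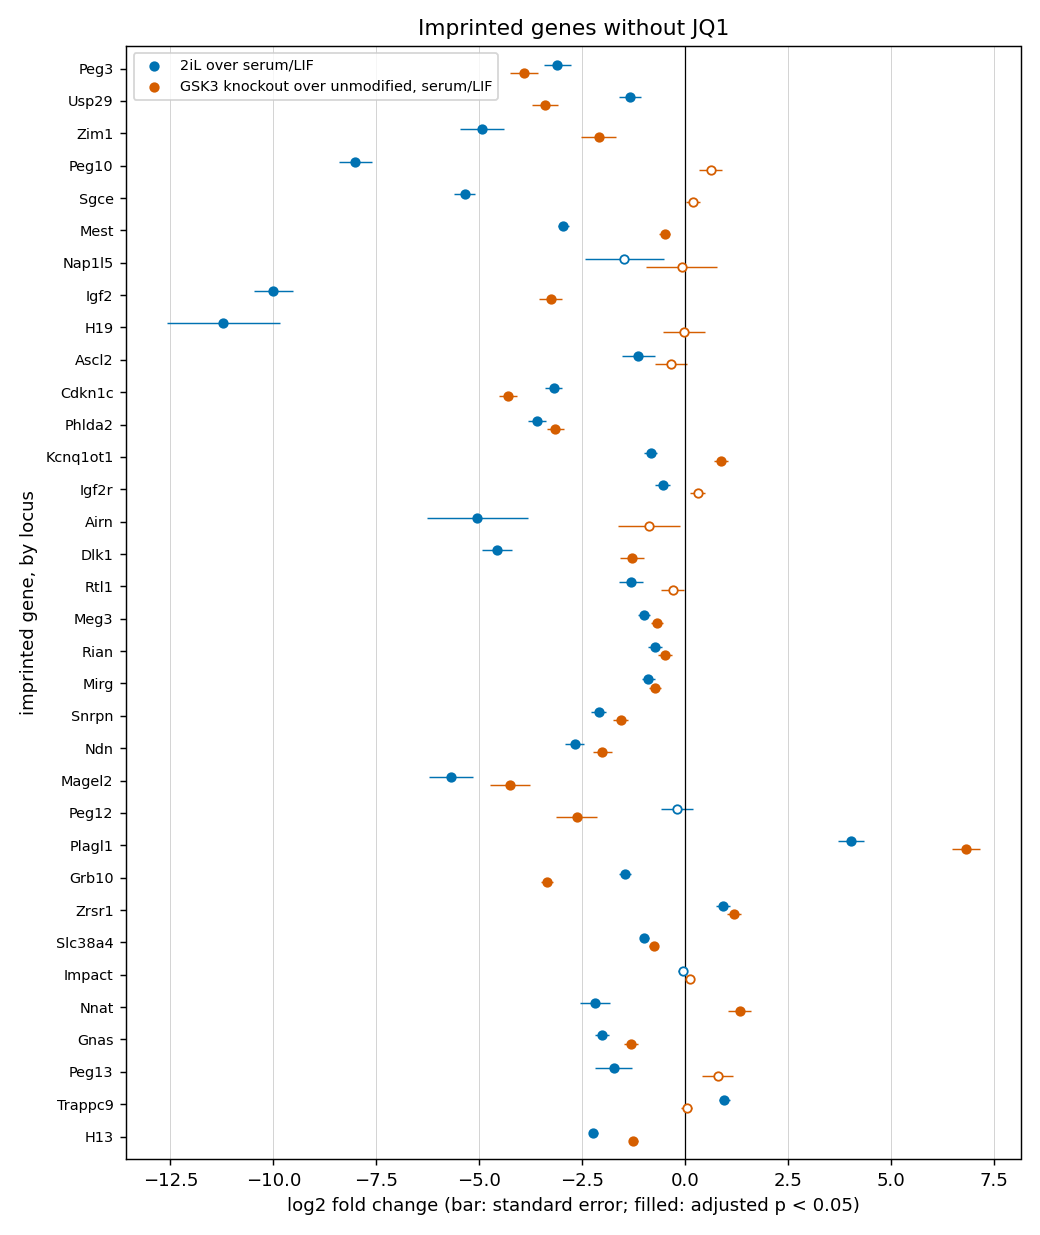
Log2 fold changes with standard errors for the 34 tested members, 2iL over serum/LIF (blue) and GSK3 knockout over unmodified cells (orange), all with DMSO, filled where the adjusted p is under 0.05. Most blue points lie left of 0, Plagl1 lies right of 0 in both, and the H19 point in 2iL is a fitted value of a gene with 0 counts there and is no measured fold.

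With JQ1 between 7 and 14 members were called in each setting. In 2iL, 9 of 34 tested members rose with JQ1 and 5 fell, that is 41.2% of them against a background of 28.5% (11.2% higher, 17.3% lower), with a median of 0.29 against -0.06 over all genes. In the knockout 4 rose and 6 fell, 29.4% against a background of 34.1% (14.6% higher, 19.5% lower), with a median of -0.10 against -0.06. In unmodified serum/LIF 2 rose and 5 fell, 20.6% against a background of 21.3% (8.54% higher, 12.8% lower), with a median of -0.08 against -0.02. The shares in the knockout and in serum/LIF were thus near the background. The 14 calls in 2iL were 7 without DMSO library 1 and 8 without JQ1 library 2, and 9 of them were kept with only the libraries in 2iL in the fit. The 2 rises and 5 falls in serum/LIF were 0 and 4 without DMSO library 2, and 3 and 2 without DMSO library 1 or without JQ1 library 2, so their balance of directions rests on single libraries. Of the 34 members 11 were called in none of the 3 settings, 16 in 1, 6 in 2, and 1, Phlda2, in all 3. Fibroblast markers fell with JQ1 in 3 of 10 tested in 2iL, 9 of 10 in the knockout and 7 of 10 in serum/LIF.

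**Figure D4:**
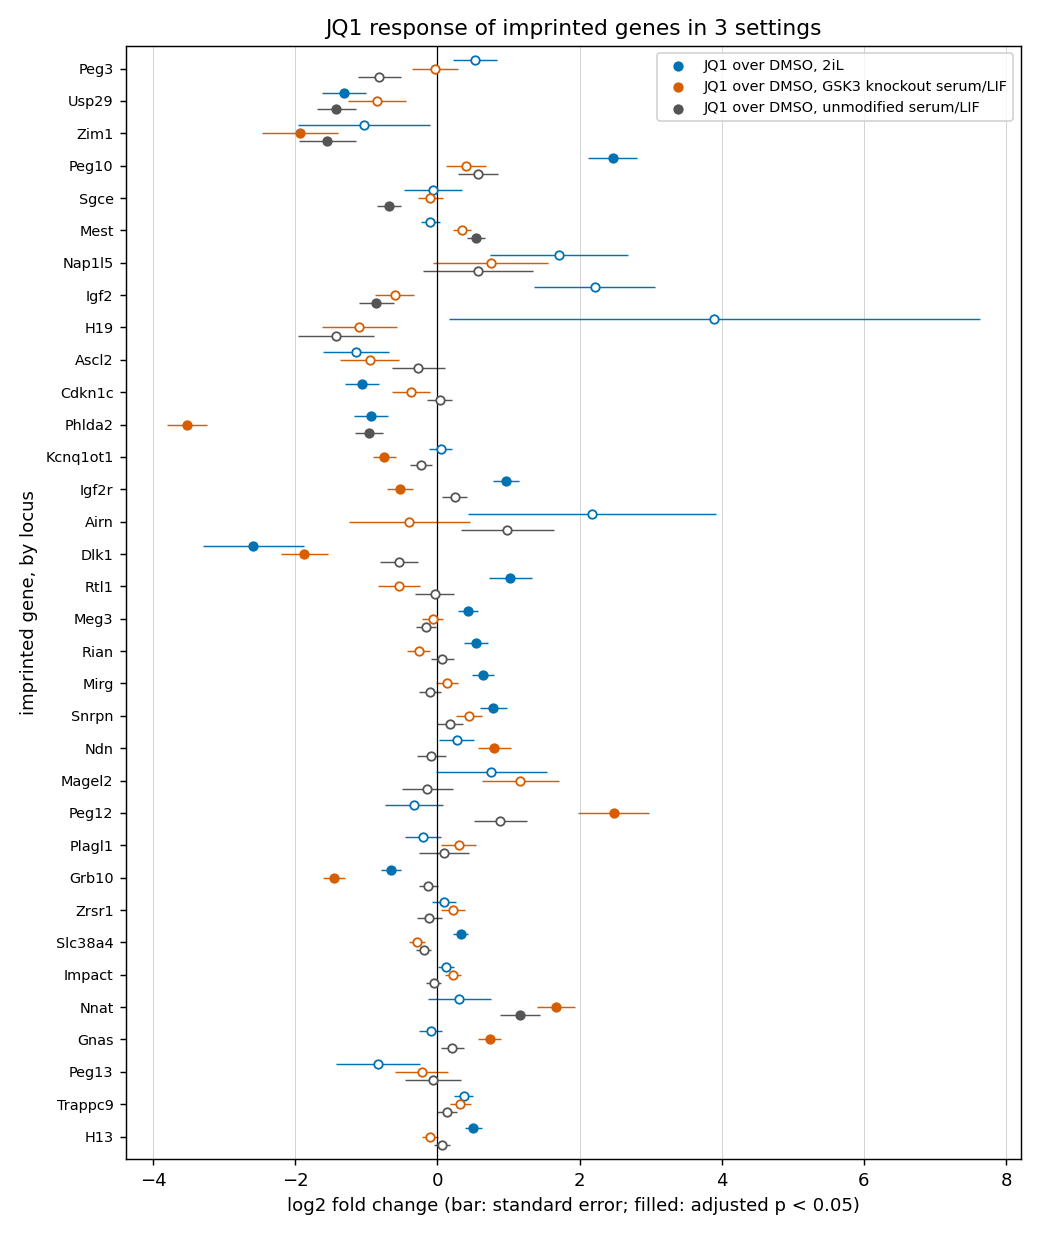
Log2 fold changes of JQ1 over DMSO with standard errors for the 34 tested members in 2iL (blue), GSK3 knockout (orange) and unmodified serum/LIF (grey), filled where the adjusted p is under 0.05. Peg10 in 2iL and Phlda2 in the knockout stand apart from the other settings, and the H19 and Airn bars in 2iL are fitted values of genes with 0 to 3 counts there.

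The direct test of a different JQ1 response found few members. Between 2iL and serum/LIF 1 of 34 differed (Peg10, higher in 2iL), against a background of 4.16% of all genes (1.35% higher, 2.80% lower). Between the knockout and serum/LIF 2 of 34 differed (Phlda2 and Grb10, both lower in the knockout), against a background of 4.37% (1.25% higher, 3.12% lower). The count between 2iL and serum/LIF was 0 without serum/LIF DMSO library 1 or 2iL JQ1 library 2, and 5 without serum/LIF JQ1 library 1. That between the knockout and serum/LIF was 4 without serum/LIF JQ1 library 2. For the other members a call in 1 setting and not in another is therefore not shown to be a difference between settings.

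At the Peg3 locus on chromosome 7 all 3 members fell in both DMSO comparisons. Peg3 (ENSMUSG00000002265.16, chr7:6703892-6730431, minus strand), a paternal zinc finger gene linked to maternal care and growth in mice, had 37.6 and 68.4 CPM in 2iL, 35.6 and 25.4 CPM in the knockout, and 535 and 376 CPM in serum/LIF. Its log2 fold change was -3.10 ± 0.33 in 2iL (adjusted p = 4.51e-06) and -3.90 ± 0.34 in the knockout (adjusted p = 2.48e-06), and neither group overlapped serum/LIF. Usp29 (ENSMUSG00000051527.11, chr7:6730578-6967219, plus strand), a paternal ubiquitin protease gene, had 3.85 and 3.73 CPM in 2iL, 1.02 and 0.782 CPM in the knockout, and 9.8 and 9.26 CPM in serum/LIF. It fell in 2iL (-1.33 ± 0.27, adjusted p = 0.00105) and in the knockout (-3.39 ± 0.32, adjusted p = 4.45e-06), and both knockout libraries lie below both 2iL libraries. The maternal zinc finger gene Zim1 had 0.138 and 0.276 CPM in 2iL (3 and 6 counts), 2.03 and 0.95 CPM in the knockout, and 7.52 and 5.27 CPM in serum/LIF, which gave -4.92 ± 0.54 and -2.10 ± 0.42.

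With JQ1 Usp29 and Zim1 fell, each in 2 of the 3 settings. Usp29 had 1.14 and 1.85 CPM with JQ1 and 3.85 and 3.73 CPM with DMSO in 2iL (-1.32 ± 0.31, adjusted p = 0.00679), and 4.04 and 3.05 CPM with JQ1 and 9.8 and 9.26 CPM with DMSO in serum/LIF (-1.42 ± 0.27, adjusted p = 0.00326). Zim1 fell by 1.93 ± 0.53 in the knockout (0.309 and 0.501 CPM with JQ1, 2.03 and 0.95 CPM with DMSO) and by 1.55 ± 0.40 in serum/LIF (2.91 and 1.45 CPM with JQ1, 7.52 and 5.27 CPM with DMSO). Peg3 itself did not pass with JQ1 in any setting, and its changes of 0.53 ± 0.31 in 2iL and -0.82 ± 0.30 in serum/LIF had opposite signs. The Usp29 call in 2iL was lost without JQ1 library 1 (adjusted p = 0.0732). For Zim1 the knockout call was lost without DMSO library 1 (-1.27, adjusted p = 0.181) or JQ1 library 1 (adjusted p = 0.127), and the serum/LIF call without DMSO library 1 (adjusted p = 0.133) or JQ1 library 2 (adjusted p = 0.102).

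Peg3 and Usp29 are transcribed away from each other, with 5′ ends 147 bases apart, and their RefSeq promoters (GRCm38.p6, from 250 bases before to 50 after the start) share 263 bases. The Peg3 promoter is shown because both genes that leave it fell together. Capitals in the promoters printed here mark TGCCGC on either strand (GCGGCA on the reverse), the hexamer that ZFP57 binds when methylated, and the Peg3 window (chr7:6730370-6730669, minus strand) holds none.
Peg3: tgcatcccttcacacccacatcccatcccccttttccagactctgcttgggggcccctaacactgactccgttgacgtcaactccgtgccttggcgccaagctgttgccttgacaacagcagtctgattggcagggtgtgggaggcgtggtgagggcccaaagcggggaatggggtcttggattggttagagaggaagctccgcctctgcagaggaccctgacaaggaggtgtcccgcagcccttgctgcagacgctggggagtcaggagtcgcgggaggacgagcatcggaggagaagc
Promoters were found for 27 of the 35 members. TGCCGC on either strand was in 10 of their 42 promoters, from 9 genes (Grb10, Igf2, Meg3, Mest, Nap1l5, Nnat, Plagl1, Snrpn and Zim1), against 11.6% of all 32841 promoters of that length in RefSeq. TATAAA was in 10 of the 42 promoters (8 genes) against 13.6% of all promoters, and the TCF motif CTTTGA in 4 of the 42 against 16.0%. The YY1 motif AAGATGG was in 0 of the 42, against 6.34% of all promoters. These matches, on both strands and with none of the 4 motifs inside another, are a description of the windows. Some windows overlap almost in full, such as a Mest pair with TGCCGC and a Gnas pair with TATAAA, so the same sequence was counted more than once.

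Peg10 and Sgce on chromosome 6, whose 5′ ends lie 99 bases apart on opposite strands, were nearly lost in 2iL and kept in the knockout. Peg10 (ENSMUSG00000092035.8, chr6:4747306-4760517, plus strand), a paternal gene derived from a retrotransposon and needed for the placenta in mice, had 5.23 and 4.15 CPM in 2iL, 2150 and 1580 CPM in the knockout, and 1540 and 870 CPM in serum/LIF. The 2iL libraries lie far below the rest and the knockout libraries lie above both serum/LIF ones. Its log2 fold change was -8.00 ± 0.39 in 2iL (adjusted p = 6.05e-09) and 0.63 ± 0.28 in the knockout (adjusted p = 0.0893). Sgce (chr6:4674350-4747207, minus strand), the paternal gene of epsilon-sarcoglycan, had 0.597 and 0.276 CPM in 2iL, 20.6 and 20.7 CPM in the knockout, and 18 and 17.9 CPM in serum/LIF. It fell by 5.34 ± 0.25 in 2iL (adjusted p = 4.93e-09) and its value in the knockout was 0.20 ± 0.17 (adjusted p = 0.377).

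Peg10 rose with JQ1 in 2iL, the setting where it was lowest. Peg10 had 23.3 and 28.3 CPM with JQ1 and 5.23 and 4.15 CPM with DMSO (log2 2.46 ± 0.34, adjusted p = 0.000275), still far under the 2310 and 1270 CPM of serum/LIF with JQ1. In the knockout the libraries held 2650 and 2270 CPM with JQ1 and 2150 and 1580 CPM with DMSO (0.40 ± 0.28), and in serum/LIF 2310 and 1270 CPM with JQ1 and 1540 and 870 CPM with DMSO (0.57 ± 0.28). The difference of the responses in 2iL and serum/LIF was 1.89 ± 0.44 (adjusted p = 0.0297). That call of a difference rested on several libraries: without serum/LIF DMSO library 1 (1.42, adjusted p = 0.0902), serum/LIF JQ1 library 2 (1.51, adjusted p = 0.0592), 2iL DMSO library 1 or 2 (adjusted p = 0.066 and 0.0934) or 2iL JQ1 library 1 or 2 (adjusted p = 0.0618 and 0.123) it no longer passed. It was also lost with only the libraries compared in the fit (1.86, adjusted p = 0.0606). Sgce, its neighbour, had 0.399 and 0.431 CPM with JQ1 and 0.597 and 0.276 CPM with DMSO in 2iL and gave no call there. In serum/LIF Sgce fell with JQ1, to 11.6 and 10.7 CPM against 18 and 17.9 CPM with DMSO (-0.68 ± 0.17, adjusted p = 0.0151), a call lost without DMSO library 1 or 2 or JQ1 library 2 (adjusted p = 0.0631, 0.0572 and 0.0723).

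Igf2 and H19 on chromosome 7 share enhancers and 1 imprinting control region, and are textbook examples of reciprocal imprinting. Igf2 (ENSMUSG00000048583.16, chr7:142650766-142666816, minus strand), the paternal gene of an insulin-like growth factor, had 0.184 and 0.138 CPM in 2iL (4 and 3 counts), 18.8 and 16.7 CPM in the knockout, and 190 and 150 CPM in serum/LIF. Its libraries thus form 3 separate levels, with log2 fold changes of -10.0 ± 0.47 in 2iL (adjusted p = 4.42e-09) and -3.26 ± 0.28 in the knockout (adjusted p = 1.86e-06). H19 (ENSMUSG00000000031.15, chr7:142575529-142578143, minus strand), a maternal noncoding RNA, had 0 counts in both 2iL libraries, 16.8 and 7.99 CPM in the knockout, and 16.6 and 8.34 CPM in serum/LIF. Set against a floor of 3 counts per library, H19 was at least 90.4-fold lower in 2iL (adjusted p = 2.62e-05), while in the knockout its log2 fold change was -0.02 ± 0.51 (adjusted p = 0.978) with overlapping libraries. In the knockout, therefore, Igf2 fell and H19 gave no call, and the wide error on H19 leaves room for a change of either sign.

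With JQ1 Igf2 fell in serum/LIF, to 124 and 63.6 CPM against 190 and 150 CPM with DMSO (-0.86 ± 0.25, adjusted p = 0.0268). That call was lost without DMSO library 1 (-0.67, adjusted p = 0.159) or JQ1 library 2 (-0.44, adjusted p = 0.154), and without JQ1 library 1 the value was -1.41. It was also lost with only the libraries compared in the fit (adjusted p = 0.0688). Of 10 tested fibroblast markers 7 fell there (median -1.17): Col1a1 had 206 and 211 CPM with JQ1 and 518 and 482 CPM with DMSO. The summed level of the 12 markers was 1630 and 1150 CPM with JQ1 and 1790 and 1480 CPM with DMSO, of which Tagln held 884 and 555 CPM with JQ1 and 562 and 361 CPM with DMSO. In the knockout Igf2 stood at 13.7 and 9.41 CPM with JQ1 and 18.8 and 16.7 CPM with DMSO (-0.60 ± 0.28, adjusted p = 0.109), and in 2iL at 0.968 and 0.604 CPM with JQ1 and 0.184 and 0.138 CPM with DMSO (2.21 ± 0.86, adjusted p = 0.0709). H19 did not pass with JQ1 in any setting: it had 3 and 0 counts in 2iL with JQ1, 8.69 and 2.56 CPM in the knockout with JQ1 and 5.69 and 3.63 CPM in serum/LIF with JQ1.

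Both genes host a microRNA, whose mature sequences (RefSeq, GRCm38.p6) are shown because both hosts had 4 counts or fewer per library in 2iL with DMSO. The seed, bases 2 to 8, is in capitals and differs in all 4. The libraries were made from messenger RNA and mature microRNAs were not measured.
mmu-miR-675-5p (H19): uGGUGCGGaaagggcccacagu
mmu-miR-675-3p (H19): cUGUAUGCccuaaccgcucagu
mmu-miR-483-5p (Igf2): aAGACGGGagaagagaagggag
mmu-miR-483-3p (Igf2): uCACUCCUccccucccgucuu

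The Kcnq1ot1 domain of chromosome 7 joins a paternal noncoding RNA to maternal growth-limiting genes that it silences in cis. Cdkn1c (ENSMUSG00000037664.13, chr7:143458339-143461050, minus strand), the gene of the cell cycle inhibitor p57, had 6.29 and 3.73 CPM in 2iL, 2.18 and 2.46 CPM in the knockout, and 45.6 and 45.5 CPM in serum/LIF. It fell by 3.18 ± 0.20 in 2iL (adjusted p = 4.87e-08) and by 4.29 ± 0.23 in the knockout (adjusted p = 6.12e-08), with no overlap. Phlda2 (ENSMUSG00000010760.5, chr7:143501545-143503150, minus strand), which limits placental growth in mice, had 7.2 and 11.1 CPM in 2iL, 10.9 and 14 CPM in the knockout, and 106 and 115 CPM in serum/LIF. Both groups stayed well under serum/LIF, with log2 fold changes of -3.59 ± 0.22 and -3.15 ± 0.21. Ascl2, a maternal transcription factor gene of the trophoblast, had 2.25 and 1.34 CPM in 2iL, 3.3 and 2.91 CPM in the knockout, and 4.44 and 3.33 CPM in serum/LIF. Its fall of 1.13 ± 0.40 in 2iL (adjusted p = 0.0279) was lost without serum/LIF DMSO library 1 (adjusted p = 0.173) or 2iL DMSO library 2 (adjusted p = 0.145), and it did not pass in the knockout (adjusted p = 0.519).

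The silencing RNA itself went opposite ways in the 2 comparisons. Kcnq1ot1 (ENSMUSG00000101609.1, chr7:143203458-143296549, minus strand) had 256 and 362 CPM in 2iL, 1060 and 961 CPM in the knockout, and 496 and 600 CPM in serum/LIF. All 3 pairs of libraries are separate, with log2 fold changes of -0.83 ± 0.16 in 2iL (adjusted p = 0.000675) and 0.88 ± 0.16 in the knockout (adjusted p = 0.000754). Cdkn1c and Phlda2, by contrast, were lower in both. Kcnq1ot1 is very long, so its level per length was modest, at 3.57 and 5.24 TPM in 2iL, 13.44 and 11.82 TPM in the knockout and 6.44 and 7.4 TPM in serum/LIF. It lies antisense to Kcnq1, which had 0.122 CPM or less in all 12 libraries.

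Phlda2 was the member that fell with JQ1 in all 3 settings. It had 4.33 and 5.17 CPM with JQ1 and 7.2 and 11.1 CPM with DMSO in 2iL (-0.93 ± 0.24, adjusted p = 0.0109). In the knockout it had 0.824 and 1.45 CPM with JQ1 and 10.9 and 14 CPM with DMSO (-3.52 ± 0.28, adjusted p = 4.7e-06), and in serum/LIF 50.9 and 62.1 CPM with JQ1 and 106 and 115 CPM with DMSO (-0.97 ± 0.19, adjusted p = 0.00411). The fall was larger in the knockout than in serum/LIF, by -2.56 ± 0.35 (adjusted p = 0.00234), a call kept under all alternatives run, whereas the response in 2iL differed from that in serum/LIF by 0.03 ± 0.31 (adjusted p = 0.985). Its call in 2iL was lost without DMSO library 2 (-0.58, adjusted p = 0.0961) or JQ1 library 1 (adjusted p = 0.0877). Cdkn1c fell with JQ1 in 2iL, to 2.73 and 2.11 CPM against 6.29 and 3.73 CPM with DMSO (-1.06 ± 0.24, adjusted p = 0.00549), a call lost without DMSO library 1 (-0.63, adjusted p = 0.0663), without JQ1 library 2 (adjusted p = 0.0746) or with only the 4 libraries in 2iL in the fit (adjusted p = 0.0554). Kcnq1ot1 fell with JQ1 in the knockout, to 565 and 636 CPM against 1060 and 961 CPM with DMSO (-0.75 ± 0.16, adjusted p = 0.00339), and unmodified serum/LIF with DMSO had 496 and 600 CPM.

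**Figure D5:**
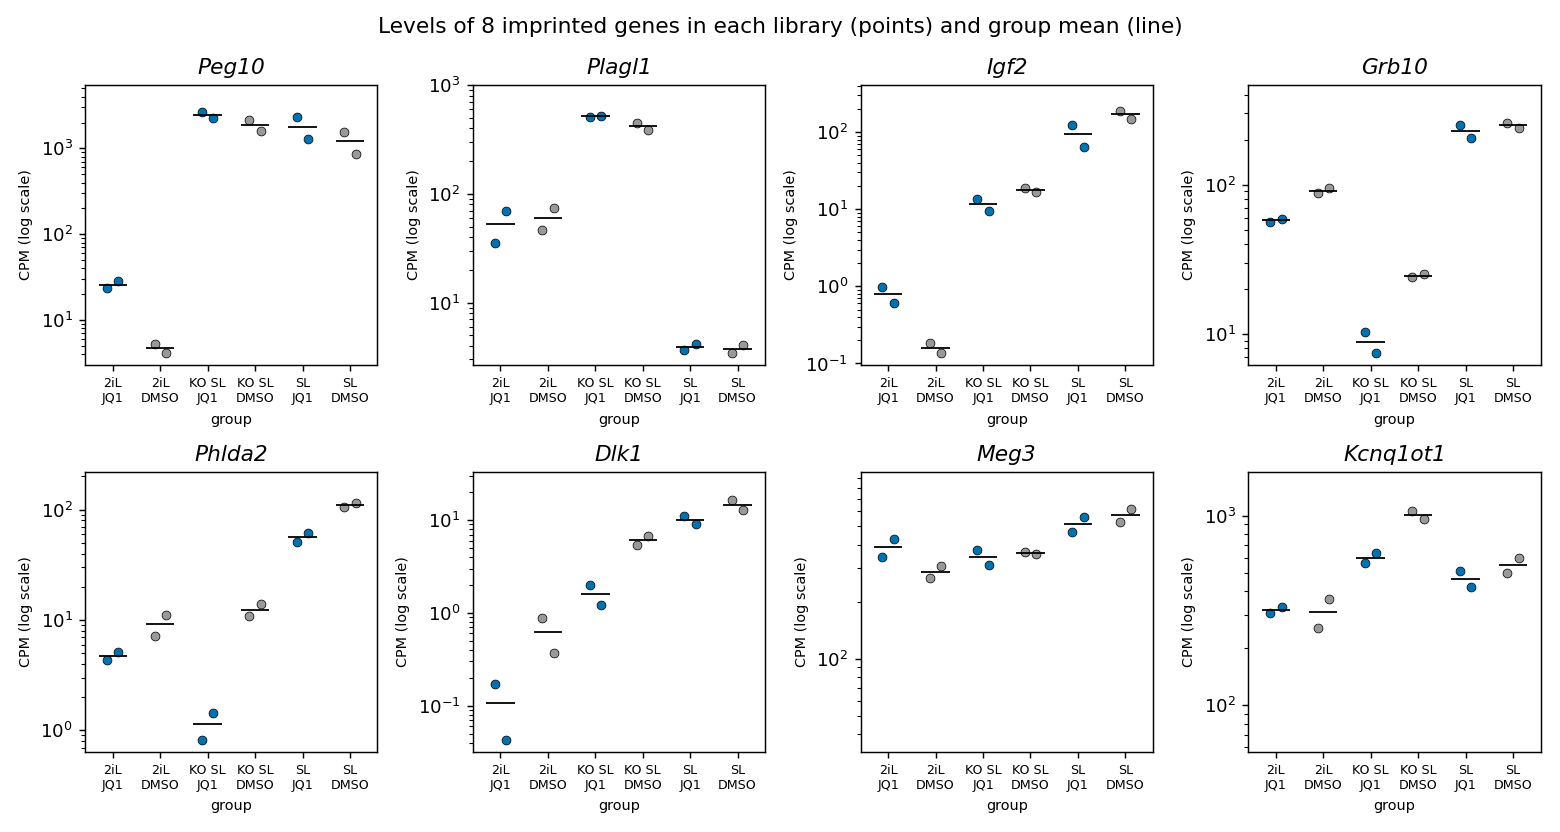
CPM (log scale) of 8 imprinted genes in each library (points, blue for JQ1 and grey for DMSO) with the group mean (line), by group. Phlda2 in the knockout runs at 0.824 and 1.45 CPM with JQ1 against 10.9 and 14 CPM with DMSO, and Plagl1 reaches 389 to 520 CPM in the knockout against 3.44 to 4.16 CPM in unmodified serum/LIF.

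At the Dlk1-Meg3 locus on chromosome 12 the paternal genes and the maternal noncoding RNAs all fell in 2iL, but by different amounts. Dlk1 (ENSMUSG00000040856.17, chr12:109452823-109463336, plus strand), a paternal membrane ligand of the Notch family that limits adipocyte formation, had 0.872 and 0.369 CPM in 2iL, 5.44 and 6.71 CPM in the knockout, and 16.5 and 12.8 CPM in serum/LIF. It fell by 4.56 ± 0.37 in 2iL and by 1.28 ± 0.28 in the knockout. Meg3 (ENSMUSG00000021268.17, chr12:109541001-109571726, plus strand), the maternal noncoding RNA whose expression marks fully potent pluripotent cells in mice, had 266 and 308 CPM in 2iL, 367 and 356 CPM in the knockout, and 529 and 621 CPM in serum/LIF. It fell by 1.00 ± 0.15 and by 0.67 ± 0.15, and in 2iL it was still among the highest members. Rian, which carries small nucleolar RNAs, had 221 and 289 CPM in 2iL, 310 and 293 CPM in the knockout, and 377 and 467 CPM in serum/LIF. It fell by 0.73 ± 0.16 and by 0.49 ± 0.16. Mirg, the host of 14 annotated microRNA hairpins, fell by 0.89 ± 0.15 and by 0.73 ± 0.15. The Rian call in the knockout was lost without serum/LIF DMSO library 2 (-0.33, adjusted p = 0.211) or knockout DMSO library 1 or 2 (adjusted p = 0.0893 and 0.136). Rtl1, a paternal gene derived from a retrotransposon, had 1.61 and 3.18 CPM in 2iL, 4.57 and 5.03 CPM in the knockout, and 5.52 and 6.35 CPM in serum/LIF. It fell by 1.30 ± 0.29 in 2iL and did not pass in the knockout (-0.30 ± 0.28). On the strand opposite Rtl1 lie 6 microRNA hairpins of the maternal allele, and with no strand setting stated their precursor and Rtl1 cannot be told apart.

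JQ1 in 2iL moved the locus in 2 directions. All 3 maternal RNAs rose: Meg3 to 343 and 431 CPM against 266 and 308 CPM with DMSO (0.43 ± 0.14, adjusted p = 0.0412), Rian to 323 and 419 CPM against 221 and 289 CPM (0.54 ± 0.16, adjusted p = 0.0248), and Mirg to 32 and 42.5 CPM against 21.8 and 26.2 CPM (0.64 ± 0.15, adjusted p = 0.00874). Rtl1 rose to 4.1 and 5.61 CPM against 1.61 and 3.18 CPM with DMSO (1.03 ± 0.30, adjusted p = 0.0219). Dlk1 fell to 0.171 and 0.0431 CPM, or 3 and 1 counts, against 0.872 and 0.369 CPM with DMSO (-2.59 ± 0.71, adjusted p = 0.0169). These calls were small or thinly counted. Without 2iL DMSO library 1 the adjusted p was 0.22 for Meg3 (0.34), 0.194 for Rian (0.37), 0.077 for Mirg (0.52), 0.164 for Rtl1 (0.63) and 0.164 for Dlk1. Without 2iL JQ1 library 2 it was 0.313 for Meg3 (0.26), 0.229 for Rian (0.35), 0.122 for Mirg (0.42), 0.166 for Rtl1 (0.78) and 0.162 for Dlk1, and without 2iL DMSO library 2 Rtl1 was at 1.61. With only the 4 libraries in 2iL in the fit the adjusted p was 0.0526 for Meg3, 0.0512 for Rian and 0.0777 for Rtl1, and Dlk1 was filtered out. With the filter of 1 CPM in 4 libraries it was 0.053 for Meg3. In the knockout Dlk1 fell too, to 1.99 and 1.23 CPM against 5.44 and 6.71 CPM with DMSO (-1.87 ± 0.33, adjusted p = 0.000998), and the other 4 members of the locus did not pass in the knockout or in serum/LIF.

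Snrpn and its neighbours on chromosome 7, the mouse counterpart of the Prader-Willi region, are all paternal. Snrpn (chr7:59982495-60140219, minus strand), a splicing protein gene, had 35 and 32.8 CPM in 2iL, 48 and 50.4 CPM in the knockout, and 140 and 150 CPM in serum/LIF. It fell by 2.10 ± 0.19 and by 1.56 ± 0.19. Ndn, which encodes necdin, a protein of the MAGE family, had 3.99 and 2.67 CPM in 2iL, 4.98 and 5.64 CPM in the knockout, and 23.7 and 18.8 CPM in serum/LIF, and fell by 2.68 ± 0.23 and by 2.01 ± 0.23. Magel2, another MAGE family gene, had 0.413 and 0.0921 CPM in 2iL, 0.813 and 0.559 CPM in the knockout, and 11.4 and 15.1 CPM in serum/LIF. Its log2 fold changes were -5.68 ± 0.54 and -4.25 ± 0.48, the lowest of the locus in both. Peg12, of the FRAT family of GSK3-binding proteins, had 1.56 and 2.53 CPM in 2iL, 0.508 and 0.224 CPM in the knockout, and 1.91 and 2.81 CPM in serum/LIF, so that it fell in the knockout (-2.63 ± 0.50, adjusted p = 0.00104) and gave no call in 2iL (-0.18 ± 0.39).

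With JQ1 members of this locus rose and none fell. Peg12 rose in the knockout to 1.92 and 2.28 CPM against 0.508 and 0.224 CPM with DMSO (2.48 ± 0.51, adjusted p = 0.0027), and Ndn to 10.3 and 8.07 CPM against 4.98 and 5.64 CPM (0.80 ± 0.23, adjusted p = 0.017). Snrpn rose in 2iL to 59.3 and 57.4 CPM against 35 and 32.8 CPM with DMSO (0.78 ± 0.19, adjusted p = 0.00849). In serum/LIF the 4 genes did not pass. The Ndn call was lost without knockout DMSO library 1 (adjusted p = 0.116) or knockout JQ1 library 1 (0.61, adjusted p = 0.144).

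Igf2r and Airn on chromosome 17 overlap on opposite strands. Igf2r (chr17:12682406-12769664, minus strand), the maternal receptor that clears IGF2, had 112 and 149 CPM in 2iL, 261 and 208 CPM in the knockout, and 173 and 204 CPM in serum/LIF. It fell by 0.53 ± 0.18 in 2iL (adjusted p = 0.0249) and stood at 0.31 ± 0.18 in the knockout (adjusted p = 0.189). Airn, the paternal antisense RNA that silences Igf2r in cis, had 0 and 1 counts in 2iL, 14 and 5 counts in the knockout, and 63 and 9 counts in serum/LIF. Its level in 2iL was 0.0219 of that in serum/LIF (exact 95% interval for counting error 0.000547 to 0.126), and it did not pass in the knockout or with JQ1. With JQ1 Igf2r rose in 2iL, to 271 and 237 CPM against 112 and 149 CPM with DMSO (0.96 ± 0.18, adjusted p = 0.00215), and fell in the knockout, to 170 and 156 CPM against 261 and 208 CPM (-0.52 ± 0.18, adjusted p = 0.0418). The fall in 2iL with DMSO was lost without serum/LIF DMSO library 2 (-0.41, adjusted p = 0.143) or 2iL DMSO library 1 (-0.39, adjusted p = 0.154) and was -0.80 without 2iL DMSO library 2. The fall with JQ1 in the knockout was lost without DMSO library 1 (-0.34, adjusted p = 0.292) or JQ1 library 1 or 2 (adjusted p = 0.106 and 0.197).

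Plagl1 stood apart as the member that rose most. Plagl1 (ENSMUSG00000019817.18, chr10:13060504-13131694, plus strand), a paternal zinc finger transcription factor gene that acts on other imprinted genes in mice, had 46.3 and 74.7 CPM in 2iL, 450 and 389 CPM in the knockout, and 3.44 and 4.04 CPM in serum/LIF. The 3 pairs of libraries form separate levels, with log2 fold changes of 4.04 ± 0.31 in 2iL (adjusted p = 2.43e-07) and 6.83 ± 0.34 in the knockout (adjusted p = 4.27e-08). JQ1 gave no call: Plagl1 had 35.1 and 69.4 CPM in 2iL with JQ1, 512 and 520 CPM in the knockout with JQ1, and 3.69 and 4.16 CPM in serum/LIF with JQ1.

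Grb10 went the other way and was lowest in the knockout. Grb10 (ENSMUSG00000020176.17, chr11:11930508-12038683, minus strand), an adaptor that damps insulin and growth factor signalling and is maternal in most tissues and paternal in neurons, had 87.6 and 94.6 CPM in 2iL, 24.1 and 25 CPM in the knockout, and 260 and 239 CPM in serum/LIF. It fell by 1.45 ± 0.14 in 2iL and by 3.35 ± 0.15 in the knockout (adjusted p = 1.4e-06 and 1.84e-08). With JQ1 it fell further, to 56.5 and 59.1 CPM against 87.6 and 94.6 CPM with DMSO in 2iL (-0.66 ± 0.14, adjusted p = 0.00353) and to 10.3 and 7.41 CPM against 24.1 and 25 CPM with DMSO in the knockout (-1.45 ± 0.15, adjusted p = 2.84e-05). In serum/LIF it had 250 and 206 CPM with JQ1 and 260 and 239 CPM with DMSO (-0.13 ± 0.13). The response in the knockout differed from that in serum/LIF by -1.32 ± 0.20 (adjusted p = 0.00392), a call kept under all alternatives run.

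Among genes that changed in both DMSO comparisons and stand alone at their locus, 3 were picked for print because a promoter of theirs holds the hexamer that the Peg3 window lacks: Plagl1 (chr10:13090582-13090881, plus strand), Grb10 (chr11:12037371-12037670, minus strand) and Nnat (chr2:157559828-157560127, plus strand) each hold 1 match. They hold 26, 45 and 17 CpG dinucleotides, against a median of 7 over all promoters. Mest meets the same rule and is not printed. Its overlapping promoters chr6:30737800-30738099 and chr6:30737803-30738102 hold 2 matches each, with 17 CpG dinucleotides, and its promoter chr6:30733256-30733555 holds no match. Gnas, H13, Zrsr1 and Slc38a4, which also changed in both comparisons and stand alone, hold no match in their windows, and neither does a second Grb10 promoter (chr11:12027922-12028221), with 9 CpG dinucleotides.
Plagl1: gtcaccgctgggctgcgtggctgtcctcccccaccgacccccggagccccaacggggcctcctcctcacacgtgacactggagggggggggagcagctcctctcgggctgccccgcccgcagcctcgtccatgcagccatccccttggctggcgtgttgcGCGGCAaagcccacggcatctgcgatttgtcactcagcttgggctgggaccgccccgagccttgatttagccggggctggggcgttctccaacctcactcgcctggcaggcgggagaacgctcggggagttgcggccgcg
Grb10: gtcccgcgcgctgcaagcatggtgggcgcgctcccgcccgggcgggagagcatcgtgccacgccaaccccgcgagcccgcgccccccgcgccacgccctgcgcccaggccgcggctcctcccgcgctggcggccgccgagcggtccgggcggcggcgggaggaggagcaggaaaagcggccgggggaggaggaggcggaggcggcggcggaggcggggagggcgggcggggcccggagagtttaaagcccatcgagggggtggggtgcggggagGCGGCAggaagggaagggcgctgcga
Nnat: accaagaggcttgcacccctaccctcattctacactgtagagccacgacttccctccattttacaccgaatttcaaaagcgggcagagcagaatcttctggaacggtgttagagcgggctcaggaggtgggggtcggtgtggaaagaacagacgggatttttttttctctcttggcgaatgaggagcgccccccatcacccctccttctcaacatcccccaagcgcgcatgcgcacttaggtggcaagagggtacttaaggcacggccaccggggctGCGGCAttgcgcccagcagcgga

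Nnat (ENSMUSG00000067786.16, chr2:157560078-157562522, plus strand), a paternal gene of a small membrane proteolipid of the nervous system, fell in 2iL and rose in the knockout. It had 0.367 and 1.29 CPM in 2iL, 9.04 and 10.1 CPM in the knockout, and 4.32 and 3.12 CPM in serum/LIF (-2.19 ± 0.36 and 1.33 ± 0.28), and without 2iL DMSO library 2 the value in 2iL was -3.40. With JQ1 it rose in the knockout, to 28 and 32.8 CPM against 9.04 and 10.1 CPM with DMSO (1.66 ± 0.27, adjusted p = 0.000616), and in serum/LIF, to 8.38 and 8.66 CPM against 4.32 and 3.12 CPM (1.17 ± 0.28, adjusted p = 0.0117). The serum/LIF call was lost without DMSO library 2 (0.98, adjusted p = 0.0766). Nnat lies inside Blcap on the opposite strand, and Blcap had 38.9 and 40.9 CPM in the knockout and 28.6 and 24.1 CPM in serum/LIF with DMSO (0.59 ± 0.14), so reads of the pair may have been split by the counting.

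Mest, a paternal gene of the hydrolase fold family linked to growth, had 19.4 and 25.7 CPM in 2iL, 127 and 121 CPM in the knockout, and 189 and 159 CPM in serum/LIF. It fell by 2.95 ± 0.14 in 2iL, with no overlap, and by 0.49 ± 0.13 in the knockout (adjusted p = 0.0084). With JQ1 it rose in serum/LIF, to 266 and 244 CPM against 189 and 159 CPM with DMSO (0.55 ± 0.13, adjusted p = 0.00953), and stood at 0.35 ± 0.13 in the knockout (adjusted p = 0.0504). The knockout call was lost without serum/LIF DMSO library 1 (adjusted p = 0.0997) or knockout DMSO library 2 (adjusted p = 0.0639), and the JQ1 call without DMSO library 2 (0.43, adjusted p = 0.0874). Its neighbour Copg2, which overlaps it on the opposite strand, rose in 2iL (74 and 71.8 CPM against 30.7 and 36.4 CPM in serum/LIF, 1.12 ± 0.13).

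Gnas, which encodes the stimulatory G protein alpha subunit and is maternal in a few tissues, had 121 and 85.6 CPM in 2iL, 167 and 171 CPM in the knockout, and 482 and 355 CPM in serum/LIF. It fell by 2.02 ± 0.17 and by 1.31 ± 0.17, and rose with JQ1 in the knockout to 290 and 272 CPM against 167 and 171 CPM with DMSO (0.73 ± 0.16, adjusted p = 0.0047). H13, a signal peptide peptidase gene, had 25 and 23.6 CPM in 2iL, 44.1 and 51.3 CPM in the knockout, and 116 and 111 CPM in serum/LIF. It fell by 2.22 ± 0.12 and by 1.25 ± 0.11, and rose with JQ1 in 2iL to 35.8 and 33.3 CPM against 25 and 23.6 CPM with DMSO (0.51 ± 0.12, adjusted p = 0.007), a call lost without 2iL JQ1 library 1 (adjusted p = 0.0561). Mcts2, the paternal retrogene within H13, on the same strand, rose in both, with 16.2 and 17.4 CPM in 2iL, 21.3 and 24.3 CPM in the knockout, and 10.1 and 9.98 CPM in serum/LIF (0.74 ± 0.14 and 1.18 ± 0.14).

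Slc38a4, a paternal amino acid transporter gene, had 246 and 223 CPM in 2iL, 279 and 273 CPM in the knockout, and 463 and 465 CPM in serum/LIF. It fell by 0.98 ± 0.11 and by 0.75 ± 0.11, and rose with JQ1 in 2iL to 296 and 291 CPM against 246 and 223 CPM with DMSO (0.32 ± 0.11, adjusted p = 0.0409). That rise was lost without 2iL DMSO library 1 or 2 (adjusted p = 0.0625 and 0.166), without 2iL JQ1 library 1 or 2 (adjusted p = 0.146 and 0.134), or with a filter of at least 1 CPM in 4 libraries (adjusted p = 0.0539). Zrsr1, a paternal retrogene of a splicing factor, had 22.1 and 17.3 CPM in 2iL, 25 and 22.1 CPM in the knockout, and 11.2 and 9.26 CPM in serum/LIF. It rose by 0.93 ± 0.17 and by 1.19 ± 0.17, while its host Commd1, on the opposite strand, rose in 2iL (0.64 ± 0.16, lost without 2iL DMSO library 1 at an adjusted p = 0.0624) and stood at 0.10 ± 0.17 in the knockout. Trappc9, a vesicle tethering gene, had 27.4 and 29.1 CPM in 2iL, 16.7 and 13.1 CPM in the knockout, and 14.8 and 14.2 CPM in serum/LIF, and rose in 2iL (0.96 ± 0.14). Peg13, the paternal noncoding RNA inside Trappc9, had 0.551 and 0.322 CPM in 2iL, 2.18 and 2.91 CPM in the knockout, and 1.53 and 1.38 CPM in serum/LIF, and fell in 2iL (-1.73 ± 0.45, adjusted p = 0.00538).

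Of the members with no call, Impact, a paternal regulator of translation, was the most even. It ran from 99 to 144 CPM over the 12 libraries, and its log2 fold changes in the 5 pairwise comparisons lay between -0.06 and 0.22. Nap1l5, a paternal retrogene inside Herc3, held 2 to 23 counts a library, so its standard errors of 0.77 to 0.97 in those comparisons leave changes of several fold undetectable at this depth.

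Genes that keep imprints and DNA methylation in place were followed beside the members, as a list of 21. They were chosen from their known roles and, like the other lists, with earlier results of these data at hand. In 2iL 9 rose and 4 fell against serum/LIF, 61.9% against a background of 54.8%, with a median of 0.21 against 0.04 over all genes. Dnmt3l, the cofactor of the de novo methyltransferases, had 1.06 and 0.415 CPM in 2iL, 218 and 225 CPM in the knockout, and 165 and 174 CPM in serum/LIF. It fell by 7.84 ± 0.37 in 2iL and did not pass in the knockout (0.39 ± 0.23). Dnmt3b, a de novo methyltransferase, had log2 fold changes of -3.39 ± 0.14 in 2iL and -2.13 ± 0.13 in the knockout. Tet2, which oxidises methylcytosine, rose by 2.42 ± 0.24 and by 2.80 ± 0.24, and Dppa3, which shields imprints in the zygote, fell, with log2 fold changes of -1.92 ± 0.39 and -5.77 ± 0.58. In the knockout 8 of the 21 rose and 4 fell, 57.1% against a background of 40.0% (median 0.26 against 0.01). Zfp57 itself had 356 and 334 CPM in 2iL, 547 and 512 CPM in the knockout, and 140 and 146 CPM in serum/LIF, a rise of 1.27 ± 0.10 and of 1.89 ± 0.10.

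With JQ1 the direct test of a different response called 3 of the 21 between 2iL and serum/LIF, 14.3% against a background of 4.16%. Between the knockout and serum/LIF it called 1 of the 21, 4.76% against a background of 4.37%, so that share was near the background. In 2iL 9 of 21 rose and 1 fell, 47.6% against a background of 28.5% (median 0.23 against -0.06): Dnmt3l rose by 3.83 ± 0.40, to 14.5 and 6.86 CPM against 1.06 and 0.415 CPM with DMSO, Dppa3 by 2.03 ± 0.39 and Dnmt3b by 1.08 ± 0.13, while Dnmt3a fell by 1.04 ± 0.22. In the knockout 4 rose and 5 fell, 42.9% against a background of 34.1% (median -0.14 against -0.06), with Tet2 down by 2.37 ± 0.24, Tet1 by 1.90 ± 0.23, Zfp57 by 1.26 ± 0.10 and Dnmt3a by 0.84 ± 0.22. In serum/LIF 4 rose and 2 fell, 28.6% against a background of 21.3% (median 0.16 against -0.02), with Tet1 down by 1.32 ± 0.22 and Zfp57 by 0.90 ± 0.10, and Kdm1b, a histone demethylase of the oocyte, and Dnmt3b up by 0.80 ± 0.15 and 0.77 ± 0.13. The Dnmt3a call in 2iL was lost without 2iL JQ1 library 1 (adjusted p = 0.0548), and that in the knockout without DMSO library 1 or JQ1 library 1 or 2 (adjusted p = 0.0971, 0.07 and 0.0597).

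Another 32 genes reported as imprinted in mice, 27 of them tested, were split between both directions. In 2iL 10 rose and 13 fell, 85.2% against a background of 54.8%, with a median of -0.22. In the knockout 7 rose and 8 fell, 55.6% against a background of 40.0%, with a median of 0.00. Calcr, a calcitonin receptor gene near Peg10, had 0 counts in both 2iL libraries and was at least 63.7-fold lower than in serum/LIF. Osbpl5 and Tnfrsf23, both near Kcnq1ot1, fell by 4.26 and 3.91 in 2iL, and Asb4 by 3.27. In the knockout Calcr fell by 4.19, Asb4 by 3.06, Osbpl5 by 2.01 and Dio3, a thyroid hormone deiodinase gene next to Mirg, by 1.84. The Asb4 call in the knockout was lost without serum/LIF DMSO library 1 or knockout DMSO library 1 or 2 (adjusted p = 0.0593, 0.0658 and 0.0516). Dio3 rose by 1.25 ± 0.33 in 2iL, where it had 7.02 and 4.33 CPM against 2.36 and 2.41 CPM in serum/LIF, and was singled out after its values were seen.

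With JQ1 this second list held 4 rises and 7 falls in 2iL (40.7% against a background of 28.5%, median -0.01). It held 6 rises and 10 falls in the knockout (59.3% against 34.1%, median -0.35), and 4 rises and 6 falls in serum/LIF (37.0% against 21.3%, median 0.02). Dio3 fell in all 3 settings, with log2 fold changes of -2.31 ± 0.36 in 2iL, -2.11 ± 0.57 in the knockout and -1.75 ± 0.39 in serum/LIF. Its knockout call was lost without DMSO library 1 (adjusted p = 0.094) or JQ1 library 1 or 2 (adjusted p = 0.1 and 0.0504), its serum/LIF call without JQ1 library 2 (adjusted p = 0.0554), and its rise in 2iL over serum/LIF with DMSO was 0.82 without 2iL DMSO library 1 (adjusted p = 0.0998). Ddc, an enzyme gene of monoamine synthesis next to Grb10, had log2 fold changes of -2.54 in 2iL, -2.04 in the knockout and -1.67 in serum/LIF. Tspan32, a tetraspanin gene of the Kcnq1ot1 domain, had log2 fold changes of -2.21 in 2iL and -2.95 in the knockout, and in serum/LIF it had 1 count with JQ1 in all against 70 with DMSO, a ratio of 0.0224 (exact 95% interval for counting error 0.000559 to 0.129). Slc22a18, a transporter gene next to Phlda2, had 1 count with JQ1 against 56 with DMSO in the knockout (ratio 0.0143, interval 0.000355 to 0.0827). It also fell in 2iL (-2.31 ± 0.65) and in serum/LIF (-3.03 ± 0.79). The 2iL call was lost without DMSO library 2 (adjusted p = 0.0807) or JQ1 library 1 (-1.64, adjusted p = 0.137), and was -3.86 without JQ1 library 2. The serum/LIF call was lost without DMSO library 2 (adjusted p = 0.118) or JQ1 library 1 or 2 (adjusted p = 0.0936 and 0.0592).

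Of the 35 members 21 overlap an annotated gene on the opposite strand, among them Kcnq1ot1, Igf2r, Airn, Nnat, Zrsr1, Mest, Nap1l5 and Rtl1. Since no strand setting is stated, values of these genes may hold reads of their partners. Snrpn overlaps Snurf (9601 bases) and Gm38393 (22570 bases) on its own strand, as Peg13 does Trappc9 and H13 does Mcts2. Reads of such pairs cannot be told apart by strand, so these values carry the same limit.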

How the data were processed

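Polyadenylated RNA of mouse ES cells was sequenced in 12 libraries. Per the submitters' processing notes, bcl2fastq, STAR 2.5.2, RSEM and DESeq2 1.18.1 were used with genome build mm10; the strand setting is not given in the sources used here. The deposited tables hold RSEM expected counts and TPM per gene, per the file headers: expected counts are the authors' estimates that share ambiguous reads among genes, and TPM is the authors' value scaled for transcript length. Between 6.11% and 8.71% of the listed expected counts in a library were not whole, and all were rounded. Library totals ran from 17869865 to 48723436, and a floor of 3 counts (counting error only) equals 0.0611 to 0.171 CPM.

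Here 1 edgeR 4.0.16 quasi-likelihood fit (R 4.3.3, limma 3.58.1) of the 6 groups was made with TMM scaling, after filterByExpr (minimum count 10, minimum total 15) left 16987 genes. The 7 comparisons were tested two-sided, with Benjamini-Hochberg adjustment over all genes and a threshold of 0.05. CPM uses the TMM library sizes. After a log2 fold change, ± gives its standard error, and after a TPM mean the SD (n = 2). The fit was tested on simulated data. Replicate numbers were not taken as pairs. Replicates differed by more than sampling noise (chi-square per gene 7.99 to 36.7).

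The members and lists were chosen with earlier results of these data known. All 35 members are named; of the other lists, up to 4 genes with the largest change among those that passed are named per comparison, and hosts or genes singled out later are given as such. Alternatives were RLE scaling, DESeq2 1.42.0, no filter, a stricter filter (1 CPM in 4 libraries), only the libraries compared, a replicate block, a minimum log2 fold change of 1, leaving out each library and, chosen after seeing the data, leaving out mitochondrially encoded genes.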

Additional observations from a re-analysis of the deposited data

Results flagged for a closer look

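In 12 results the JQ1 response differed between settings by a direct interaction test (edgeR's quasi-likelihood test, adjusted p under 0.05 over all genes). Between 2iL and serum/LIF the background was 4.16% of all genes. Calls there covered 1 of 34 tested members, 3 of 21 genes that keep imprints and 0 of 27 in the second imprinted list. Between the knockout and serum/LIF the background was 4.37%, and calls covered 2 of 34, 1 of 21 and 5 of 27 (18.5%). Between 2iL and serum/LIF the log2 response differed by 1.89 for Peg10, 1.13 for Zfp57, 3.54 for Dnmt3l and 1.38 for Tet1. The Peg10 call was lost without several single libraries and with only the libraries compared, as given above. The Tet1 call was lost without serum/LIF DMSO library 2, serum/LIF JQ1 library 2, 2iL DMSO library 1 or either 2iL JQ1 library (adjusted p between 0.0641 and 0.0876), and with only the libraries compared (adjusted p = 0.0657).

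Between the knockout and serum/LIF the response differed by -2.56 for Phlda2 and -1.32 for Grb10 among the members. It differed by -1.78 for Tet2, a call lost without knockout DMSO library 1 or knockout JQ1 library 1 (adjusted p = 0.0508 and 0.055). In the second list of imprinted genes it differed by -1.28 for Ppp1r9a, -1.64 for Sfmbt2, -0.55 for Gab1, -1.56 for Phactr2 and -1.02 for Dhcr7. Sfmbt2, an imprinted Polycomb gene, had 24.1 and 25.7 CPM with JQ1 and 50.1 and 49.6 CPM with DMSO in the knockout, and 221 and 127 CPM with JQ1 and 117 and 106 CPM with DMSO in serum/LIF. The Sfmbt2 call was lost without knockout DMSO library 1 or either knockout JQ1 library (adjusted p between 0.0504 and 0.0697), the Phactr2 call without either knockout JQ1 library (adjusted p = 0.0723 and 0.0632), the Ppp1r9a call without serum/LIF DMSO library 1, serum/LIF JQ1 library 1, knockout DMSO library 1 or either knockout JQ1 library (adjusted p between 0.0811 and 0.122), and the Gab1 call without 6 of the 8 libraries (adjusted p between 0.0501 and 0.145).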

How the results depend on the processing

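Of 88 called results of members, none reversed in 977 alternative values. These values do not include the minimum log2 fold change of 1, nor genes that the filter of an alternative removed. Within them 65 results kept their call and 23 lost it in at least 1 alternative (59 values). Counts of called members moved by more than 1.5 times as follows, and the cause was not tested. With a log2 fold change of at least 1, JQ1 calls numbered 5 in 2iL, 6 in the knockout and 3 in serum/LIF. With no filter, 18 members were called with JQ1 in the knockout, 9 differed in response between 2iL and serum/LIF, and 8 between the knockout and serum/LIF. With only the libraries compared, 19 were called with JQ1 in the knockout, and 0 differed between 2iL and serum/LIF by edgeR; DESeq2 on all libraries gave 5 for that difference. Leaving out 1 library at a time gave 7 to 14 JQ1 calls in 2iL, 7 to 10 in the knockout and 4 to 10 in serum/LIF, 30 in each case for 2iL over serum/LIF, 21 to 23 for the knockout, 0 to 5 for the difference between 2iL and serum/LIF and 2 to 4 for that between the knockout and serum/LIF. Same-numbered JQ1 and DMSO libraries deviated from their group means with correlations of 0.118 in 2iL, 0.117 in the knockout and 0.185 in serum/LIF, and over all pairs of groups the range was -0.186 to 0.185. With 2 numbers a group each is a single pair, a hint from the data at most, and the numbers were not taken as pairs. With the replicate block the difference between 2iL and serum/LIF held 3 members, and the other counts stayed within 1.5 times: JQ1 calls were 15 in 2iL, 13 in the knockout and 8 in serum/LIF. Depth limits Rasgrf1, which was too low to test, and Nap1l5, with 2 to 23 counts a library.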
